A study of Mus musculus with 6 samples.

Results

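The constitutive proteasome subunits were the 35 genes, of 22248 listed, whose symbol was Psma, Psmb, Psmc or Psmd followed by a number, leaving out the inducible subunits *Psmb8*, *Psmb9* and *Psmb10* and the thymic subunit *Psmb11*. They were measured by RNAseq in unstimulated macrophages grown from mouse bone marrow with macrophage colony-stimulating factor (BMDMs). Mice of the genotype *Lyz2*cre gave 3 control libraries, and *Cited2* fl/fl:*Lyz2*cre mice gave 3 CITED2-deficient libraries, all on the C57BL/6 strain and labelled as 10 weeks old (the study's methods give a younger age). All the mice carried Cre recombinase driven by *Lyz2*, a gene of myeloid cells, and the CITED2-deficient mice also carried floxed alleles of *Cited2* (CITED2 is a nuclear partner of the coactivators CBP and p300). The labels do not say whether each library came from a separate mouse, so p-values measure the spread between these libraries.

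The proteasome is the barrel-shaped protease that degrades proteins tagged with ubiquitin. Its core particle is built of stacked rings of α subunits (Psma), which gate the entry, and β subunits (Psmb), of which PSMB5, PSMB6 and PSMB7 hold the active sites. The regulatory particle binds ubiquitin, unfolds the substrate with a ring of ATPases (Psmc) and removes the ubiquitin chain in its lid (Psmd). In macrophages, interferon replaces the 3 constitutive catalytic subunits with PSMB8, PSMB9 and PSMB10, and this immunoproteasome supplies peptides for MHC class I. The question here was whether the constitutive subunits differed between control and CITED2-deficient BMDMs as their inducible counterparts did.

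*Cited2* was at 71.7, 79.3 and 75.5 FPKM (fragments per kilobase of transcript, scaled to library size) in the control libraries and at 9.27, 7.22 and 7.53 in the CITED2-deficient libraries, as the labels imply. The depth recovered from the FPKM was 17289285 to 18952077 fragments in control libraries and 22583994 to 26100408 in CITED2-deficient libraries, 1.34 times as deep on average. Macrophage markers summed to 5624 to 5694 FPKM in control and 5287 to 5367 FPKM in CITED2-deficient libraries. The 5 of 8 that fell were *Lyz2* (log2 fold change -1.59), *Itgam* (-0.81), *Adgre1* (F4/80, -0.32), *Csf1r* (-0.31) and *Mertk* (-0.26). *Lyz2* also drives Cre in all these mice, and the part of the Cre allele in its level was not tested. *Fcgr1* rose (log2 fold change 1.48), and *Cd68* and *Cd14* did not pass. All 8 tested fibroblast or stromal markers of 10 rose, from summed levels of 45.01 to 53.8 FPKM in control libraries to 179 to 556 in CITED2-deficient libraries, where replicate 1 was highest. Of the 10 granulocyte markers, 8 fell and 1 rose, and their sums of 746 to 816 and 662 to 780 FPKM overlapped. The largest falls were those of *Mpo* (-2.54), *Prtn3* (-2.12), *Elane* (-2.08) and *Ctsg* (-1.68), which add little to the sums, and the rise was that of *Ltf* (0.90). Of the listed markers 0 were at 0 in all libraries, and the part of these other cells in the results was not tested. Without CITED2-deficient replicate 1, 5 of 34 subunits were called higher and 5 lower, beside 15% and 31.7% of all tested genes. In bulk RNA, fewer cells of a type and less RNA per cell cannot be told apart.

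The constitutive subunits were abundant in both genotypes, and most differed by less than 1.1-fold between them. Of the 35 genes, 34 had a mean FPKM of at least 1 and were tested, by limma on log2(FPKM + 1) over all 11687 such genes, with Benjamini-Hochberg adjustment and a threshold of 0.05. The regulatory lid subunit gene *Psmd8* rose most. It was followed by *Psmb6*, *Psma4*, *Psmd2*, *Psmb2* and *Psmc3*, while *Psma6*, *Psma5*, *Psmb4* and *Psmc1* fell. Thus 6 of 34 (17.6%) rose, against 16.7% of all tested genes, and 4 (11.8%) fell, against 34.6%. In either direction this was 29.4% of the subunits against 51.3% of all tested genes. The other 24 did not pass. The groups did not overlap for 10 subunits that were higher (29.4%, against 19% of all tested genes) and 5 that were lower (14.7%, against 40.9%). Limma-voom on recovered fragments called 6 subunits higher and 5 lower, against 17% and 35.9% of all tested genes (52.9% in either direction). Its rises held *Psmc5* (limma-voom adjusted p = 0.0346) in place of *Psmc3* (0.0648), and *Psmd9* (0.0376) joined the falls. The log2 fold changes ran from -0.24 to 0.47, and only *Psmd8* passed with a change of at least 1.2-fold, a limit that 12.6% of all tested genes passed as higher and 22.6% as lower (35.2% in all). Changes smaller than 1.1-fold were seen for 25 of the 34 (73.5%) and for 36.1% of all tested genes. The median log2 fold change was 0.020 for the subunits and -0.10 for all tested genes.

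The typical gene was thus listed lower in CITED2-deficient BMDMs, so the calls depended on the scaling between libraries. Median-ratio scaling, which centres each library on the gene-wise geometric means, moved the median of all tested genes to -0.0069 and that of the subunits to 0.12. Then 16 of the 34 (47.1%) were higher past the threshold, against 23.1% of all tested genes, and 0 were lower, against 21.3% (44.4% of all tested genes in either direction). Changes under 1.1-fold were then 19 of the 34 (55.9%), against 41.8% of all tested genes. *Psmd8*, *Psmb6*, *Psma4*, *Psmd2*, *Psmb2* and *Psmc3* were higher under both scalings. The falls of *Psma6*, *Psma5*, *Psmb4* and *Psmc1* did not pass after median-ratio scaling. Relative to the typical gene, all 4 then had log2 fold changes between -0.073 and -0.020. After quantile normalization, *Psma6* and *Psma5* still passed as lower, while *Psmb4* and *Psmc1* did not (limma adjusted p = 0.0609 and 0.0615).

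**Figure D1:**
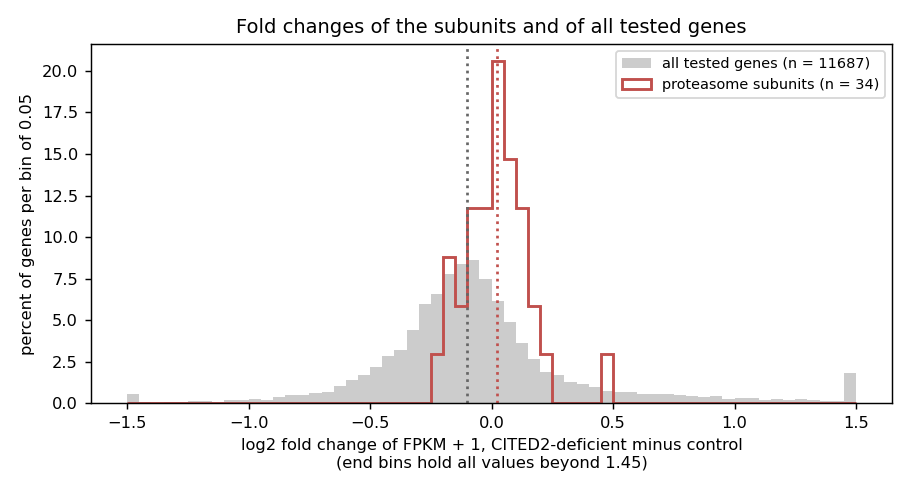
Distribution of log2 fold changes (x axis, CITED2-deficient minus control on the log2(FPKM + 1) scale) as the percent of genes per bin (y axis), for all 11687 tested genes (grey) and the 34 tested proteasome subunits (red outline), with dotted lines at the medians of -0.10 and 0.020. The subunits lie in a narrow range, from -0.24 to 0.21 apart from *Psmd8* at 0.47.

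**Figure D2:**
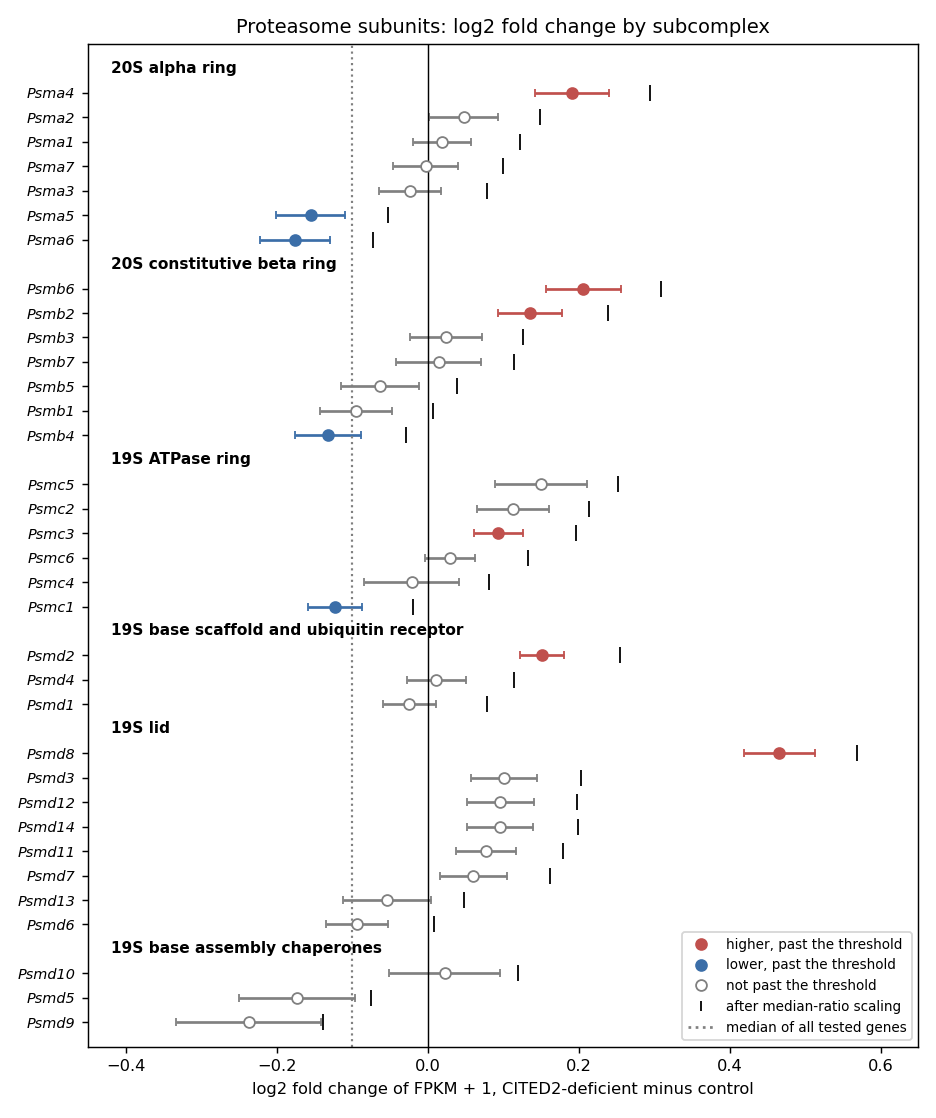
Log2 fold change of each tested subunit (points, with the limma standard error as bars), grouped by subcomplex, with filled red and blue points past the threshold, black ticks for the value after median-ratio scaling, and a dotted line at the median of all tested genes (-0.10). *Psmd8* at 0.47 stands apart from the other subunits, and the scaling shifts all 34 to the right.

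The subunits of the core particle were mixed. In the α ring, 1 of 7 tested genes rose and 2 fell, with a median log2 fold change of -0.0028. *Psma4* (ENSMUSG00000032301, chromosome 9, 54950790 to 54958030 in mm10) was at 109, 110 and 100 FPKM in control libraries and at 127, 115 and 123 in CITED2-deficient libraries. The groups did not overlap, as was true of 59.9% of all tested genes in one direction or the other, and the log2 fold change was 0.19 (SE 0.05, limma adjusted p = 0.00987).

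*Psma6* (ENSMUSG00000021024, chromosome 12, 55384222 to 55418454) encodes another α ring subunit and was at 91.5, 101 and 91.7 FPKM in control libraries. In CITED2-deficient libraries it was at 81.8, 82.8 and 86.7, below every control library, with a log2 fold change of -0.18 (SE 0.05, limma adjusted p = 0.0115). *Psma5* (ENSMUSG00000068749, chromosome 3, 108256926 to 108279974) was at 63.2, 63.8 and 63.6 FPKM against 55.7, 61.05 and 54.3. The control libraries lay close together and above all 3 CITED2-deficient libraries (log2 fold change -0.16, SE 0.05, limma adjusted p = 0.0199). Leaving out any 1 of control replicates 2 and 3 and CITED2-deficient replicates 1 and 3 ended this call (limma adjusted p from 0.0515 to 0.0709).

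The study lists *Psma2*, another α ring gene, among interferon response genes that were significantly higher without CITED2, evaluated by gene set enrichment analysis. The limma test of single genes used here is a different one. *Psma2* was at 37.0, 37.8 and 37.0 FPKM in control libraries and 40.4, 36.45 and 38.9 in CITED2-deficient libraries. The groups overlapped, since CITED2-deficient replicate 2 was the lowest of the 6 libraries (log2 fold change 0.047, SE 0.05, limma adjusted p = 0.413), while after median-ratio scaling it was higher past the threshold (0.15). *Psma1* (0.019), *Psma7* (-0.0028) and *Psma3* (-0.024) had log2 fold changes smaller than their standard errors.

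*Psma8*, which encodes the α subunit of male germ cells, was the 1 member below the filter. It was at 0.719, 1.23 and 1.03 FPKM in control libraries and 0.558, 0.915 and 0.883 in CITED2-deficient libraries, from 14 to 24 fragments per library. Its recovered fragment numbers were not whole in every library, whereas those of the other 34 members were, and *Psma8* resembles *Psma7*, so that fragments could have been divided between them. *Psma8* was not tested for a difference, and its levels overlapped between the groups.

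In the constitutive β ring, 2 of 7 genes rose and 1 fell (median log2 fold change 0.015). The catalytic subunits come first. *Psmb6* (ENSMUSG00000018286, chromosome 11, 70525367 to 70527858), whose product cuts after acidic residues, was at 122, 133 and 129 FPKM in control libraries and 150, 138 and 156 in CITED2-deficient libraries. Every CITED2-deficient library was above every control library, with a log2 fold change of 0.21 (SE 0.05, limma adjusted p = 0.00738). *Psmb5* (ENSMUSG00000022193, chromosome 14, 54614119 to 54618022), which encodes the chymotrypsin-like subunit, was at 69.5, 68.5 and 74.3 FPKM against 69.1, 63.0 and 71.0. *Psmb7* (ENSMUSG00000026750, chromosome 2, 38588036 to 38644087), which encodes the trypsin-like subunit, was at 21.8, 23.8 and 22.5 FPKM against 21.5, 23.2 and 24.1. The groups overlapped for *Psmb5* and *Psmb7*, and neither passed (log2 fold changes -0.063 and 0.015, SE 0.05 and 0.06, limma adjusted p = 0.332 and 0.844). *Psmb7* overlaps *Nek6* on the opposite strand, and processed pseudogenes of *Psmb5*, *Psmb6* and *Psmb7* are annotated. The libraries were stranded, and the recovered fragment numbers of *Psmb5*, *Psmb6* and *Psmb7* were whole in every library. Whether fragments were assigned to the wrong gene was not tested.

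Among the noncatalytic β subunits, *Psmb2* (ENSMUSG00000028837, chromosome 4, 126677630 to 126709714) was at 80.4, 73.5 and 78.5 FPKM in control and 85.6, 87.7 and 82.2 in CITED2-deficient libraries. All 3 CITED2-deficient libraries were higher (log2 fold change 0.14, SE 0.04, limma adjusted p = 0.0262). Leaving out control replicate 2, or either of CITED2-deficient replicates 1 and 2, ended the call (limma adjusted p from 0.0605 to 0.0818). *Psmb4* (ENSMUSG00000005779, chromosome 3, 94884093 to 94886961) was at 140, 144 and 144 FPKM against 134, 121 and 136. All control libraries were higher, and the log2 fold change was -0.13 (SE 0.04, limma adjusted p = 0.0317). With 1 library left out, this call held when that was CITED2-deficient replicate 1 or else 3, and the limma adjusted p was 0.0508 to 0.0842 without any 1 of the others. *Psmb3* (0.025) and *Psmb1* (-0.095) did not pass.

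The promoters of 2 catalytic subunit genes are shown because they hold a match to the motif of the antioxidant response element. NRF1 (encoded by *Nfe2l1*) and NRF2 (encoded by *Nfe2l2*) bind this element, and NRF1 is known to raise proteasome genes through it. Binding at these matches was not measured. The motif searched was TGACNNNGC on both strands, from 250 bases before to 50 bases after the start site, in RefSeq promoters of build GRCm38.p6. Of the 28 members matched by symbol, 5 (17.9%) held it, namely *Psmb5*, *Psmb6*, *Psmc6*, *Psmd9* and *Psmd12*, against 14.0% of the 27025 genes in the table. The third catalytic gene, *Psmb7*, was among the 7 members not matched and was not searched. Capitals mark the motif, which starts at position -47 in *Psmb5* (chr14:54617946-54618245, minus strand) and at -9 in *Psmb6* (chr11:70525107-70525406, plus strand).
Psmb5: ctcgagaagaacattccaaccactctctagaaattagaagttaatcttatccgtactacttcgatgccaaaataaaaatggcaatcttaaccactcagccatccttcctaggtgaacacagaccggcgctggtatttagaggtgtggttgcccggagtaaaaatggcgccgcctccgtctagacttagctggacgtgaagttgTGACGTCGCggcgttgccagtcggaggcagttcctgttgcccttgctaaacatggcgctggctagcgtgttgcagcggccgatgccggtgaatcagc
Psmb6: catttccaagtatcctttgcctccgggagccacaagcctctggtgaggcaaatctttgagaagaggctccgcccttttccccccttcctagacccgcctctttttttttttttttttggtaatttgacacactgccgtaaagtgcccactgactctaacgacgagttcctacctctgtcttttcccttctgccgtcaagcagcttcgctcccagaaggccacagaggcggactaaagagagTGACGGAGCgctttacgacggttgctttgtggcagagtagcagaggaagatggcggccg
Of the 5 genes with the motif, *Psmb6* rose and the other 4 did not pass the threshold. *Psmd8*, which rose most, held no match in the window. These matches cannot show whether NRF1 or NRF2 had a part in any change, and this was not tested.

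The ATPase ring, which unfolds substrates, had 1 rise and 1 fall among 6 genes (median log2 fold change 0.062). *Psmc3* (ENSMUSG00000002102, chromosome 2, 91054009 to 91066369) was at 106, 105 and 103 FPKM in control and 115, 110 and 110 in CITED2-deficient libraries. All 3 CITED2-deficient libraries were higher, by a small amount (log2 fold change 0.094, SE 0.03, limma adjusted p = 0.0374). *Psmc3* overlaps *Slc39a13* on the opposite strand, and its call was lost without any control replicate or without CITED2-deficient replicate 1 (limma adjusted p from 0.0582 to 0.118). *Psmc1* (ENSMUSG00000021178, chromosome 12, 100110154 to 100123405), an ATPase subunit that opens the gate of the core particle, was at 153, 156 and 163 FPKM against 148, 147 and 139. All control libraries were higher (log2 fold change -0.12, SE 0.04, limma adjusted p = 0.0186), and the call was lost without control replicate 3 (limma adjusted p = 0.0734) or CITED2-deficient replicate 3 (limma adjusted p = 0.0647). *Psmc5* (0.15), *Psmc2* (0.11), *Psmc6* (0.029) and *Psmc4* (-0.021) did not pass. CITED2-deficient replicate 2 held the lowest level of *Psmc5* among its group, 46.0 FPKM against 53.9 and 53.55. Under 6 of 17 alternative settings *Psmc5* was higher past the threshold. Among these were leaving out that library (limma adjusted p = 0.00288) and median-ratio scaling (limma adjusted p = 0.00752).

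In the lid, 1 of 8 genes rose and 0 fell, with a median log2 fold change of 0.086. *Psmd8* (ENSMUSG00000030591, chromosome 7, 29174188 to 29180701), a subunit added late in lid assembly, was at 172, 179 and 159 FPKM in control libraries and 226, 235 and 244 in CITED2-deficient libraries. The means were 169.95 ± 10.1 and 234.9 ± 9.36 FPKM (SD, n = 3 each), a ratio of 1.38. Its lowest CITED2-deficient library was well above its highest control library, and the log2 fold change was 0.47 (SE 0.05, limma adjusted p = 4.3e-05). These levels rest on 3467 to 3736 fragments in control and 6098 to 7333 in CITED2-deficient libraries. The neighbours of *Psmd8* in the complex moved less. *Psmd3* (0.10), *Psmd12* (0.096), *Psmd14* (0.096), which encodes the deubiquitinating enzyme, *Psmd11* (0.077) and *Psmd7* (0.060) did not pass, nor did *Psmd13* (-0.055) and *Psmd6* (-0.094). After median-ratio scaling 6 of the 8 lid genes were higher past the threshold, beside 4 of 6 ATPase, 3 of 7 α ring and 2 of 7 β ring genes and 23.1% of all tested genes, and the difference between these shares was not tested. The summed level of the lid genes was 1.13 times the control level in CITED2-deficient BMDMs, most of it from *Psmd8*.

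*Psmd2* (ENSMUSG00000006998, chromosome 16, 20651652 to 20663414), the base scaffold to which ubiquitin shuttle factors dock, was at 191, 189 and 195 FPKM in control and 214, 208 and 217 in CITED2-deficient libraries. All 3 CITED2-deficient libraries were higher, with a log2 fold change of 0.15 (SE 0.03, limma adjusted p = 0.00232). The ubiquitin receptor gene *Psmd4* (0.011) and the scaffold gene *Psmd1* (-0.025) did not pass. *Psmd5*, *Psmd9* and *Psmd10* encode chaperones that help to assemble the base and do not stay in the finished particle. They were the members with the lowest control levels after *Psma8*, and none passed. *Psmd9* was at 17.5, 21.0 and 17.4 FPKM against 17.4, 13.7 and 15.9 (log2 fold change -0.24, SE 0.10, limma adjusted p = 0.0669). *Psmd5* was at 16.6, 16.3 and 16.2 FPKM against 16.0, 14.6 and 12.8 (-0.17, SE 0.08, limma adjusted p = 0.0889). The groups did not overlap for *Psmd5* and overlapped for *Psmd9*.

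**Figure D3:**
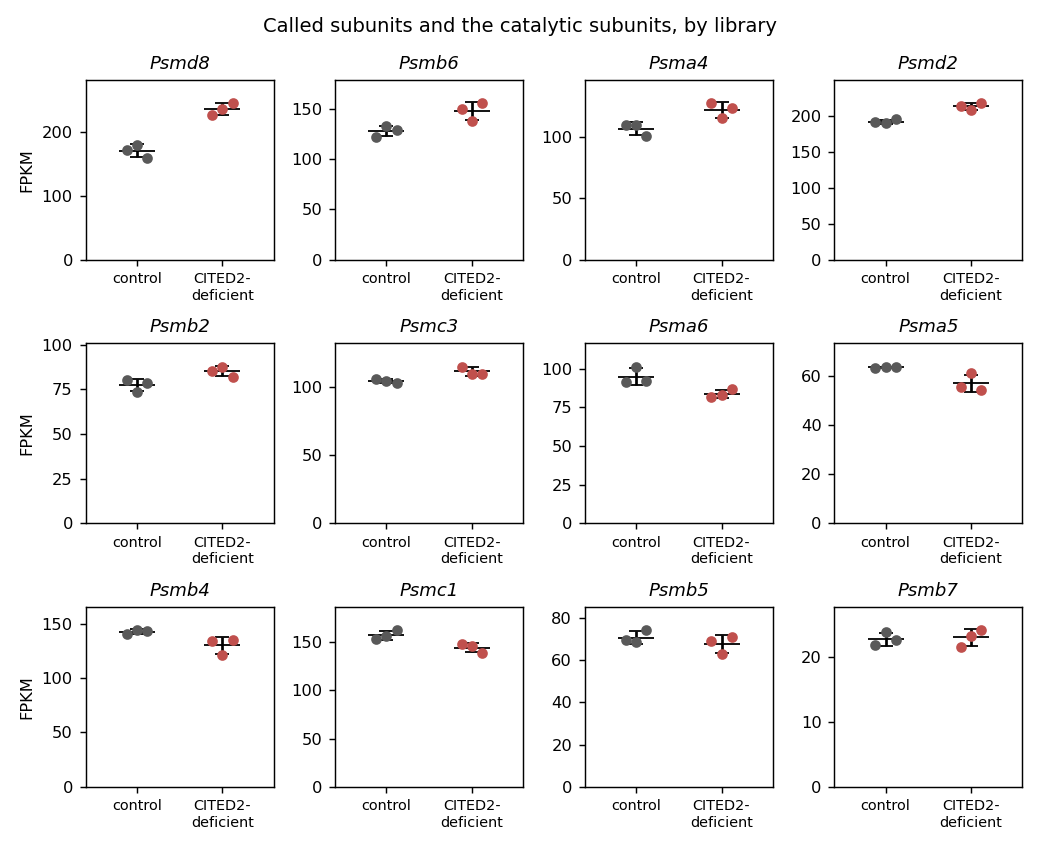
FPKM (y axis, from 0) of the 10 subunits past the threshold and of *Psmb5* and *Psmb7* in each library, with control in grey, CITED2-deficient in red, and the mean and SD (n = 3 each) in black. The shift of *Psmd8*, from 169.95 to 234.9 FPKM, is the largest of the 12, and the libraries of *Psmb5* and *Psmb7* overlap.

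The levels of the subunits differed among themselves far more than between genotypes, although the finished particle holds equal numbers of most of them. In control BMDMs the mean FPKM of the 34 tested members ran from 15.5 for *Psmd10* to 192 for *Psmd2*, a 12.4-fold range with a median of 69.1. *Psmd2*, *Psmd8*, *Psmc1*, *Psmb4* and *Psmb6* were the highest, and *Psmb7*, *Psmd9*, *Psmd5* and *Psmd10* the lowest. In 15 of the 33 pairs of neighbours in this order the control libraries overlapped, as for *Psma1*, *Psma7* and *Psma6*. The deposited FPKM divide by the mean length of all annotated transcripts of a gene. Counted instead per kilobase of the principal protein-coding transcript, a choice made after the values were seen, the levels ran from 7.35 (*Psmd5*) to 127 (*Psmd8*), *Psmd2* was in place 6 in place of 1, and *Psmb7* in place 23 in place of 31. Levels per length between subunits thus depended on the transcript chosen, whereas the ratio of a gene between genotypes did not. The spread between replicates was small, with a median coefficient of variation of 3.09% in control and 4.66% in CITED2-deficient libraries. All 35 members together held 0.383% of the summed FPKM in control and 0.404% in CITED2-deficient libraries, 2570 ± 30.6 and 2671 ± 56.2 FPKM (SD, n = 3 each).

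**Figure D4:**
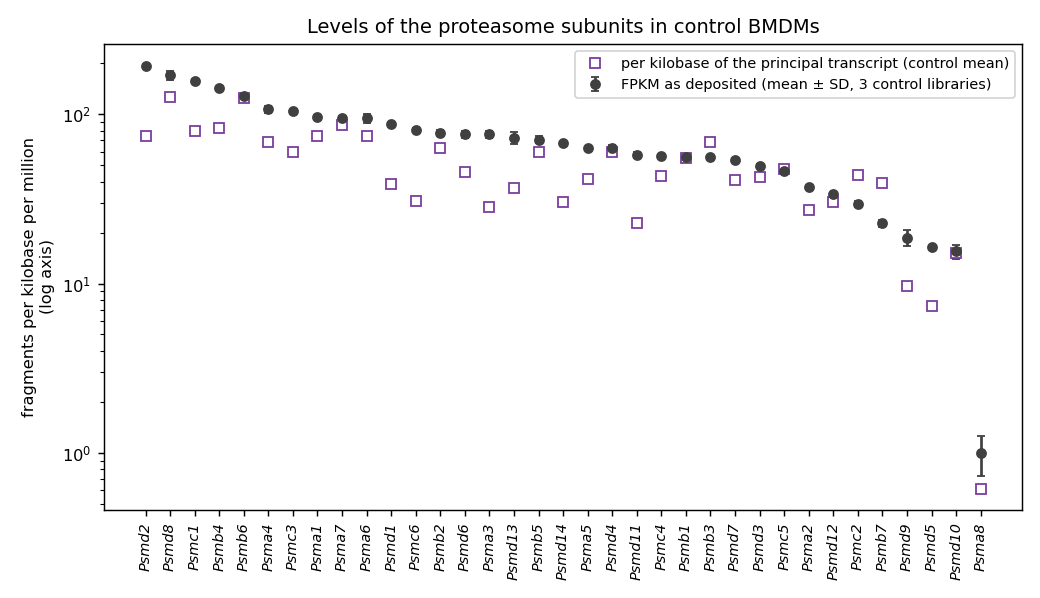
Level of each of the 35 subunits in control BMDMs (y axis, FPKM or its equivalent per principal transcript, log axis), in the order of the deposited FPKM (black points, mean ± SD over 3 libraries), with open squares for the mean per kilobase of the principal transcript. The order changes with the length used, and *Psma8*, at 0.992 FPKM, is far below the others on both scales.

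The inducible subunits that take the places of the catalytic ones differed from them. *Psmb8* was at 51.6, 56.3 and 55.2 FPKM in control libraries and 98.2, 97.5 and 104 in CITED2-deficient libraries (log2 fold change 0.86, SE 0.04, limma adjusted p = 3.88e-07). *Psmb9* rose by 0.85 and *Psmb10* by 0.72 on the same scale. *Psmb11* was covered by 0, 1 and 2 fragments in control libraries and by 0 in each CITED2-deficient library, at or under the limit that a count of 0 allows (3 fragments per library). The ratio of *Psmb8* to *Psmb5* was 0.742, 0.822 and 0.743 in control and 1.42, 1.55 and 1.46 in CITED2-deficient libraries. The ratio of *Psmb9* to *Psmb6* was 0.312, 0.283 and 0.312 against 0.451, 0.533 and 0.456, and that of *Psmb10* to *Psmb7* was 4.22, 3.69 and 4.02 against 6.604, 6.39 and 6.47. All 3 ratios were higher in every CITED2-deficient library, and they do not depend on the scaling between libraries. The differences in mean log2 ratio were 0.94, 0.66 and 0.71 in this order (each p = 0.1 by a two-sided exact permutation test, 0.1 after Benjamini-Hochberg adjustment over the 3 ratios, the smallest that 3 against 3 libraries allow).

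**Figure D5:**
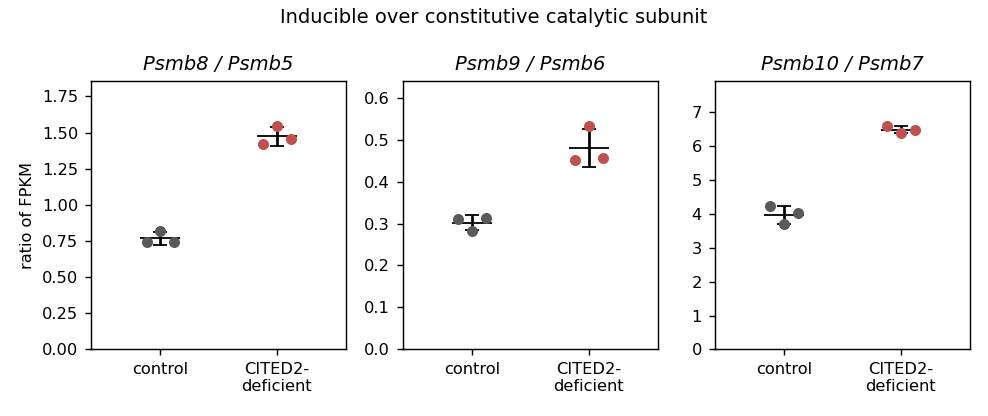
Ratio of the FPKM of each inducible catalytic subunit to that of the constitutive subunit it replaces (y axis, from 0) in each library, with the mean and SD (n = 3 each) in black. For *Psmb8* over *Psmb5* the 3 control libraries lie between 0.742 and 0.822 and the 3 CITED2-deficient libraries between 1.42 and 1.55.

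Of 41 tested genes that act with the proteasome, 9 rose and 13 fell, beside 16.7% and 34.6% of all tested genes. After median-ratio scaling 14 were higher and 7 lower, beside 23.1% and 21.3%. Activators that cap the core particle were among the rises, with *Psme1* (0.75) and *Psme2* (0.83), which form the interferon-inducible activator, and *Psme4* (0.30), while *Psme3* (0.017) and the inhibitor gene *Psmf1* (-0.10) did not pass. Of the 5 chaperones of core particle assembly, *Psmg1* (-0.22) and *Psmg2* (-0.37) fell and 0 rose, and *Pomp* (0.0032) did not pass. The fall of *Psmg1* was lost after median-ratio scaling (-0.13, limma adjusted p = 0.112), while that of *Psmg2* still passed. Among the regulators of proteasome genes, *Nfe2l1* rose from 81.3, 78.5 and 82.2 FPKM to 91.6, 91.3 and 91.1 (log2 fold change 0.18, SE 0.03, limma adjusted p = 0.00151). *Nfe2l2* (-0.21) fell, as did *Ddi2* (-0.19) and *Ngly1* (-0.35), whose products process NRF1 into its active form. The small Maf partners went in different directions, *Mafk* at 0.51 and *Mafg* at -0.32, and after median-ratio scaling *Nfe2l2* and *Ddi2* no longer passed.

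*Ubb* (0.15), a ubiquitin gene, rose, while *Rps27a* (-0.48), which encodes ubiquitin fused to a ribosomal protein, fell. The call of *Ubb* was lost without control replicate 1 or 3 and without CITED2-deficient replicate 1 or 3. *Rps27a* also passed as lower after median-ratio scaling (-0.38). Of the 8 substrate delivery genes, *Vcp* (-0.20), an ATPase that extracts substrates, and *Ubqln2* (-0.26) fell and 0 rose. Of the 7 genes of other regulatory particle and bound factors, *Sem1* (-0.17), the deubiquitinase genes *Uchl5* (-0.25) and *Usp14* (-0.13) fell and 0 rose. All 3 of these falls were lost after median-ratio scaling.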

How the data were processed

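The RNA of 3 control and 3 CITED2-deficient BMDM cultures was depleted of ribosomal RNA and made into stranded libraries. The authors aligned reads with STAR (mm10), ran Cuffdiff on the GENCODE annotation and deposited 1 FPKM value per gene and library. Tool versions and annotation release: not given in the sources used here. FPKM are scaled to the library total, so a few strongly changed genes shift all others.

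Coordinates are from GENCODE vM21 (mm10). Fragment numbers were recovered by multiplying the FPKM with the rounded-down mean transcript length of each gene, and 96.1% of 22220 matched genes came out whole (tolerance 0.02) in every library. Replicates differed by more than sampling noise (mean chi-square per gene from 2.26 to 5.86).

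The test was limma 3.58.1 (R 4.3.3) on log2(FPKM + 1) (variance trend, mean FPKM of at least 1, Benjamini-Hochberg adjustment over all tested genes). The scale understates changes of low genes. Interval and floor values cover counting error only. The steps were tested on simulated data. The members, lists and tests were chosen with earlier results of these data known. Values in every library are given for the catalytic subunits, *Psma2*, the 5 largest rises and up to 5 falls past the threshold and the member below the filter, with *Psmc3*, *Psmd5* and *Psmd9* added after their values were seen. Related genes are named where they passed, apart from 1 that is not reported here, with a few others after their values were seen. Alternatives were other pseudocounts, filters and scalings, array weights, no variance trend, blocking on the replicate number, limma-voom on the fragments, removal of length and GC trends, and each library left out. The fold threshold of 1.2 and the principal transcript length were added after the data were seen. Dendritic, lymphoid and erythroid marker lists had 0, 1 and 0 tested genes, and the 1 (*Ebf1*) rose. Protein sequences were not used here.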

Additional observations from a re-analysis of the deposited data

How the results depend on the processing

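Across 17 alternatives, *Psmd8*, *Psmb6*, *Psma4* and *Psmd2* stayed higher past the threshold, and of 578 values of the subunits 474 kept their direction and side of it. Subunits called higher numbered 16 after median-ratio scaling, 10 after quantile normalization, 19 after removal of the trend with transcript length and GC content, 1 with a fold of at least 1.2, and 4 to 7 with 1 library left out. Subunits called lower numbered 0, 2, 0, 0 and 2 to 5 in the same order, and 1 without the variance trend. The shares of all tested genes called higher and lower were 23.1% and 21.3% after median-ratio scaling, 19.4% and 26.7% after quantile normalization, and 24.6% and 20.2% after the trend removal. All genes called lower numbered 2490 after median-ratio scaling, 2354 after the trend removal and 2644 with the fold threshold (4044 before), and related genes called numbered 12 with that threshold. Limma-voom on the recovered fragments called 6 subunits higher and 5 lower. With the replicate block 5 were higher and 4 lower, *Psmc3* losing its call (adjusted p = 0.0535 from limma). Samples with the same number deviated with correlations of 0.014, 0.0078 and 0.040, and those with different numbers with correlations from -0.052 to 0.035. These values cannot show whether the numbers pair the libraries, and the labels do not say.

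Log2 fold changes turned positive after median-ratio scaling for *Psma7* (0.10), *Psmd1* (0.078), *Psma3* (0.078), *Psmc4* (0.081), *Psmd13* (0.048), *Psmb5* (0.039), *Psmd6* (0.0081) and *Psmb1* (0.0072), none past the threshold. They turned positive after the trend removal for *Psma7* (0.15, the 1 past the threshold), *Psmd1* (0.089), *Psma3* (0.098), *Psmc4* (0.12), *Psmb4* (0.030), *Psmc1* (0.028), *Psmd13* (0.081), *Psmb5* (0.11), *Psmd6* (0.047) and *Psmb1* (0.0073). After quantile normalization they did so for *Psma7* (0.014), *Psma3* (0.00019) and *Psmc4* (0.013), and with array weights for *Psma7* (0.0073). With 1 library left out, signs changed for *Psma1* (-0.00062 to 0.048), *Psma7* (-0.046 to 0.028), *Psmb3* (-0.014 to 0.071), *Psmb7* (-0.019 to 0.058), *Psmc4* (-0.084 to 0.054), *Psmd4* (-0.015 to 0.032), *Psmd10* (-0.048 to 0.076) and *Psmd13* (-0.12 to 0.0043). Beyond the scaling, the cause was not tested.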
